A study of Caenorhabditis elegans with 6 samples.

Results

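UM10, a Caenorhabditis elegans strain that carries human alpha-synuclein, was compared with the wild-type strain N2 by RNA sequencing of whole animals. All 4 UM10 libraries formed one group and both N2 libraries the other, so the comparison took in all 6 libraries analysed here. The libraries were chosen by strain alone. UM10 carries the transgene unkIs7, written aex-3p::alphasynA53T in its labels, in which the aex-3 promoter drives alpha-synuclein with the A53T change. N2 is labelled wild type and carries no transgene. Animals of both strains were L4 larvae, the last larval stage, raised from the egg on plates with bacteria. The food was Escherichia coli K12 BW25113 or csgA(-) bacteria, in which the main subunit of curli, an extracellular amyloid fibre, is missing. UM10 replicates 1 and 2 are titled unkIs7_WT, UM10 replicates 3 and 4 are titled unkIs7_csgA, and both N2 libraries are titled N2_WT. The names of the deposited tables give the foods of the UM10 pairs the other way round. A contrast of all UM10 libraries with N2 does not depend on which naming is right, but it sets animals from 2 foods against animals from 1. N2 on csgA(-) was not analysed here. The labels name no control strain with another transgene, so alpha-synuclein itself, the insertion and other differences between the strains cannot be told apart.

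Alpha-synuclein is a human protein of nerve terminals that forms aggregates in Parkinson's disease, and the A53T change causes an inherited form of it. Worms have no gene of their own for it. The aex-3 promoter is active in neurons, and RNA of other tissues makes up most of each library. At the L4 stage the germ line of a hermaphrodite completes its sperm and turns to making oocytes, while the epidermis and the pharynx prepare the cuticle for the last moult. Transcripts for oocytes and for the cuticle change greatly over the hours around this stage. The hours within L4 at which animals were taken were not given in the sources used here.

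Each library held 22657727 to 23532382 reads counted in genes, and 17475 to 19567 genes had at least 1 read. Levels are given in CPM, the reads of a gene scaled to a common library size with factors from TMM, a trimmed mean of log ratios, in the order of the replicate numbers. Across genes, the correlation of log2 CPM was 0.934 to 0.966 over the 6 pairs of UM10 libraries, 0.860 to 0.945 over the 8 pairs of a UM10 and an N2 library, and 0.955 between the N2 libraries. A principal component analysis put 52.3% of the variance on its first axis, where UM10 lay at 17.8, 13.7, 76.0 and 38.0 and N2 at -90.7 and -54.9. N2 replicate 1 stood apart in composition. Its TMM factor was 0.610, against 1.04 to 1.2 in UM10 and 1.02 in N2 replicate 2, and its 10 most abundant genes took 9.20% of its counts, against 5.82% to 7.64% in UM10 and 6.26% in N2 replicate 2. Counts without this library are therefore given beside the results. Nothing in the labels says that the libraries came from separate cultures, so the p-values below measure the spread between these samples only.

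The strains differed in many transcripts, with genes of the forming oocyte and eggshell higher in UM10 and genes of the body and pharyngeal cuticle lower. Of 15331 genes tested, 526 (3.43%) were called higher and 281 (1.83%) lower in UM10, together 5.26%, at an adjusted p under 0.05 in the quasi-likelihood test of edgeR (Benjamini and Hochberg's adjustment over all tested genes). An unadjusted p under 0.05 was found for 4058 genes. All adjusted p-values below are of that test. Log2 fold changes are UM10 over N2 throughout, and their median was 2.25 for higher and -2.09 for lower calls. With the 37 higher genes whose N2 libraries all held at most 3 reads set to their bounds or ratios, the first median was 2.21. A difference of over 4-fold was fitted for 314 of the genes called higher and 151 of those called lower. In all 807 called genes the strains' libraries were fully apart, which held for 37.3% of all tested genes (UM10 above N2 in 21.1% of all tested genes). With upper-quartile scaling in place of TMM the calls were split evenly, 345 higher and 353 lower, and the median of all tested genes moved to -0.14 from the 0.01 it had with TMM.

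**Figure D1:**
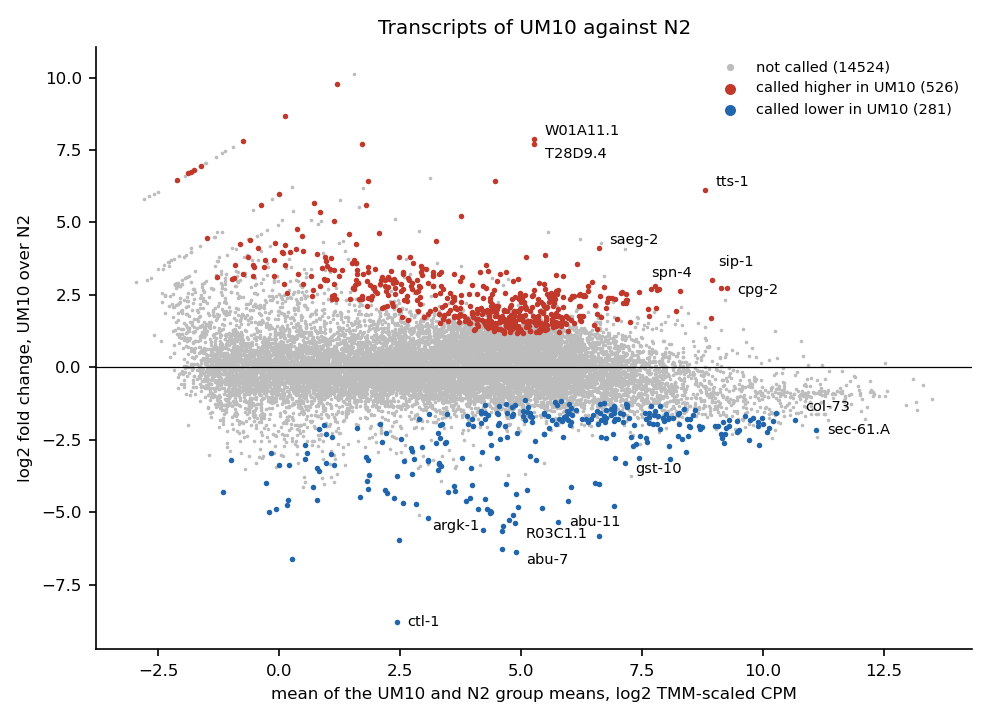
Each point is 1 of 15331 tested genes, with the mean of both group means on the x axis (log2 TMM-scaled CPM) and the fitted log2 fold change of UM10 over N2 on the y axis. The 526 genes called higher (red) and the 281 called lower (blue) lie at all levels, with T28D9.4 and W01A11.1 far above 0 and ctl-1 far below it; straight runs of points at the left are genes with almost no reads in one strain.

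The number of calls rested on N2 replicate 1. Without it only T28D9.4 and W01A11.1 were called, from the same test with 1 N2 library left. In that fit 799 of the 807 genes had an unadjusted p under 0.05, with median log2 fold changes of 1.92 and -1.81. With 1 N2 library the spread comes from the UM10 libraries alone, and these genes were selected as called with all libraries, so the counts of unadjusted p-values without N2 replicate 1, here and for the lists below, are a description only. Without N2 replicate 2, 948 genes were called, and 463 of the 807 were among them. The count was 169 without UM10 replicate 1, 569 without UM10 replicate 2, 349 without UM10 replicate 3 and 458 without UM10 replicate 4. No gene of any list was called without N2 replicate 1. In the fits that each left out 1 library other than N2 replicate 1, 135 of the 807 were called every time. With only the pair titled unkIs7_WT against N2, 489 of the 807 were called, and with only the pair titled unkIs7_csgA, 805 could be tested and 456 were called.

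**Figure D2:**
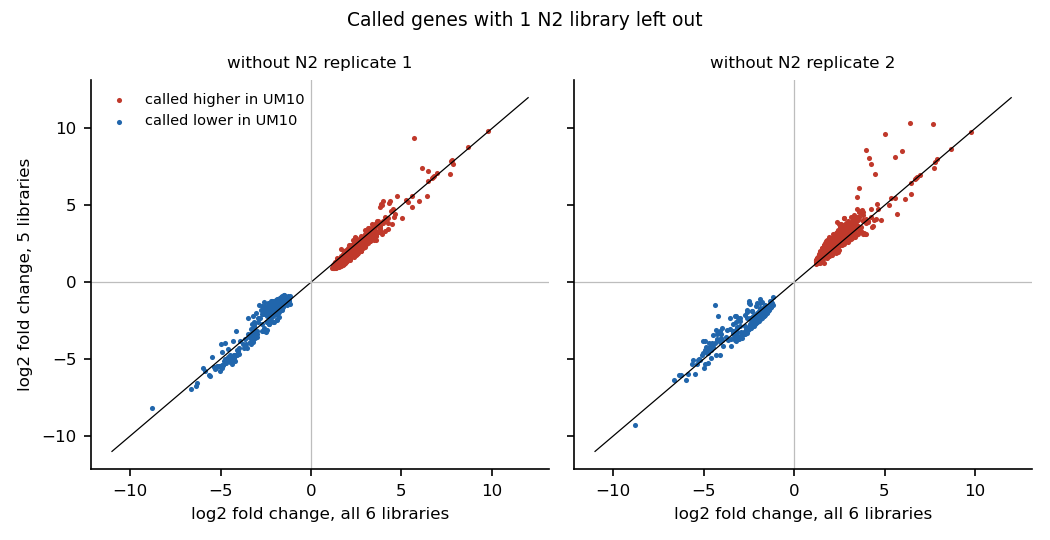
Log2 fold changes of the 807 called genes with all 6 libraries (x axis) against those with 1 N2 library left out (y axis), without N2 replicate 1 at left and without N2 replicate 2 at right; the line marks equal values. The strains' libraries were fully apart in these genes, so that leaving 1 out could not turn a sign, and the median of the genes called higher was 1.92 without N2 replicate 1 and 2.53 without N2 replicate 2.

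Genes of the oocyte and the eggshell rose in UM10, and of the 47 lists this one had the highest share of higher calls. The list held 28 genes, all tested, of which 21 were called higher and 0 lower, with log2 fold changes of 2.01 to 2.93 among the called. Its median log2 fold change was 2.38, where all tested genes had 0.01. Among the eggshell genes, cpg-2, which encodes a chondroitin proteoglycan (WBGene00015102, chromosome III 7102092 to 7103990), was at 832, 1254, 1299 and 857 CPM in UM10, against 102 and 213 CPM in N2. Every UM10 library was above both N2 libraries. That was a log2 fold change of 2.75 (standard error, SE, 0.50; adjusted p 0.0221). For cpg-1, which encodes a chondroitin proteoglycan too, the levels were 541, 1040.3, 1505 and 809 CPM in UM10, against 94.2 and 201 CPM in N2 (log2 fold change 2.72, SE 0.57, adjusted p 0.0333). A further proteoglycan gene, cpg-3, had 223, 142, 168 and 87.6 CPM in UM10, against 18.2 and 22.5 CPM in N2 (2.93, SE 0.46, adjusted p 0.0169). UM10 replicate 4 was the lowest UM10 library for cpg-3 and still stood far above N2. The chitin synthase gene chs-1 rose with a log2 fold change of 2.54. The genes egg-1 and egg-2, whose LDL-receptor-like proteins on the oocyte surface are needed for sperm entry, rose with 2.53 and 2.65. The same held for egg-3, which organises the oocyte cortex, with 2.38. Of the genes given here with their levels, cpg-3, spn-4 and nos-2 overlap another gene, and reads were counted without strand.

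Maternal regulators of the same list followed the eggshell genes. The zinc-finger gene pos-1, which sets embryonic cell fates (chromosome V 8414086 to 8415254), was at 382, 471, 444 and 305 CPM in UM10, against 41.9 and 80.9 CPM in N2, a log2 fold change of 2.702 (SE 0.45, adjusted p 0.0178). Levels of spn-4, a maternal RNA-binding protein gene, were 483, 647, 622 and 399.5 CPM in UM10, against 55.9 and 118.5 CPM in N2 (2.62, SE 0.48, adjusted p 0.0216). The strains were apart in every library for both genes, with N2 replicate 1 the lowest. The nanos-related gene nos-2, which acts in germ cell formation, had 107, 88.6, 70.2 and 45.7 CPM in UM10, against 10.1 and 10.9 CPM in N2 (2.89, SE 0.42, adjusted p 0.0169). Its N2 libraries were nearly equal. Oocyte maturation genes oma-1 and oma-2 rose with log2 fold changes of 2.15 and 2.59, the translational regulator puf-5 with 2.696, the P granule gene meg-1 with 2.89, and rme-2, the receptor that takes up yolk, with 2.38. The germline translational regulators gld-1 and daz-1, which act earlier than these genes, did not pass the test. Their log2 fold changes were 1.28 (SE 0.52, adjusted p 0.154) and 1.29 (SE 0.45, adjusted p 0.106). For daz-1 the levels were 244, 378, 427 and 312 CPM in UM10, against 84.7 and 192 CPM in N2, without overlap. For gld-1 the levels were 483, 953, 973 and 767 CPM in UM10, against 172 and 483 CPM in N2, so that UM10 replicate 1 matched N2 replicate 2. The count of 21 was 10 without UM10 replicate 1 and 0 without N2 replicate 1. Without N2 replicate 1, all 21 called members had an unadjusted p under 0.05 and the list's median was 1.88.

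The summed level of the 6 oocyte markers (oma-1, oma-2, puf-5, rme-2, cpg-2 and egg-1) was 1843 to 2782 CPM in UM10, against 235 to 516 CPM in N2, and all 6 were called higher. These markers belong to the oocyte list as well. The 7 general germline markers summed to 1129 to 2273 CPM in UM10, against 396 to 1162 CPM in N2. Those ranges overlapped and none of the 7 was called. The 6 sperm markers summed to 120.0 to 249.8 CPM in UM10, against 170.0 to 202 CPM in N2, also with overlap. In RNA of whole animals, more cells of a type and more RNA per cell cannot be told apart. The part of these marker levels in the results was not tested.

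**Figure D3:**
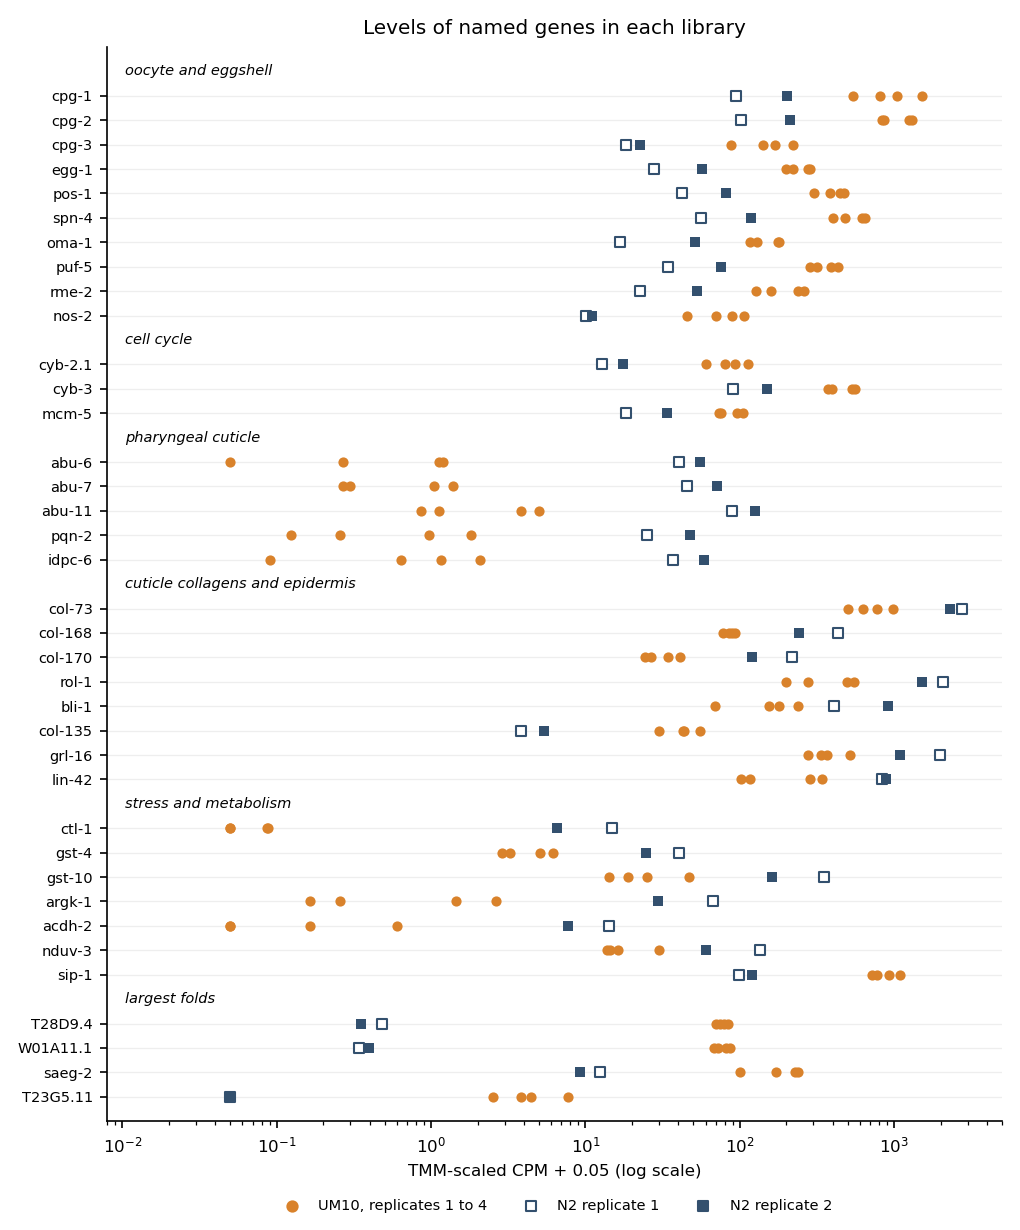
Level of each named gene in each library on a log axis (TMM-scaled CPM plus 0.05), with UM10 as filled circles, N2 replicate 1 as open squares and N2 replicate 2 as filled squares. For every gene shown the UM10 and N2 libraries do not overlap; T23G5.11 had 0 reads in both N2 libraries, so its squares coincide.

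Cell cycle genes also rose in UM10. In the list of DNA replication and cyclin genes 10 of 23 were called higher and 0 lower, with a median log2 fold change of 1.38 over the list. The B-type cyclin gene cyb-2.1, which drives entry into mitosis, was at 112, 80.2, 93.7 and 60.3 CPM in UM10, against 12.8 and 17.6 CPM in N2 (2.51, SE 0.38, adjusted p 0.0169). Its close paralogue cyb-2.2 rose with a log2 fold change of 2.49. A further B-type cyclin gene, cyb-3, had 398, 536, 556 and 372 CPM in UM10, against 90.03 and 151 CPM in N2 (1.95, SE 0.42). All UM10 libraries were above both N2 libraries for these cyclins. The replicative helicase gene mcm-5 rose with 1.75 (SE 0.37), and the mitotic kinase gene cdk-1 with 1.42 (SE 0.35). The count of 10 was 2 without UM10 replicate 1, 2 or 3, 4 without UM10 replicate 4 and 0 without N2 replicate 1. All 10 had an unadjusted p under 0.05 without N2 replicate 1.

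Genes for meiosis, P granules and small RNA pathways, which work through the whole germ line, were called less. Of 31 tested, 2 were higher and 0 lower, although the median log2 fold change was 1.18. All UM10 libraries were above both N2 libraries in 20 of the 31, where this held for 21.1% of all tested genes. The called genes were zim-1, which pairs chromosomes in meiosis (1.63, SE 0.40), and deps-1, which builds P granules (1.62, SE 0.40). The median was 0.55 without N2 replicate 1 and 2.12 without N2 replicate 2. The count of calls was 0 without any 1 UM10 library or N2 replicate 1 and 14 without N2 replicate 2. Sperm genes showed no common change, with 1 of 53 higher (ssp-37, 2.91) and 1 lower (msp-74, -2.97, a gene with near-identical copies whose shared reads were not counted). Each was 1.89% of the list, where all tested genes had 3.43% higher and 1.83% lower. None of the 46 tested histone genes was called by edgeR, and 3 higher and 1 lower had an unadjusted p under 0.05 without N2 replicate 1. The 6 vitellogenin genes, which the adult intestine uses to make yolk, had a median log2 fold change of -1.71 and none was called. The most abundant, vit-6, was at 4086, 6983, 7114 and 1416 CPM in UM10, against 18727 and 8609 CPM in N2, with a wide spread inside both strains.

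Some genes of the pharyngeal cuticle fell steeply in UM10, and most were not called. This cuticle lines the feeding organ, is rebuilt at each moult, and holds proteins of low complexity encoded by the abu, pqn, idpc and idpp genes. Of 93 annotated members 78 were tested, of which 25 were called lower and 0 higher, with log2 fold changes of -6.37 to -1.65. The remaining 53 were not called. Of all tested members 20 had a log2 fold change above 0, and 7 of these had all UM10 libraries above both N2 libraries. Over all tested genes, UM10 lay fully above N2 in 21.1%. In abu-7 (WBGene00000030, chromosome V 5163270 to 5164782) UM10 had 0.220, 0.995, 0.247 and 1.34 CPM, against 45.4 and 71.5 CPM in N2. The log2 fold change was -6.37 (SE 0.65, adjusted p 0.00625). Its neighbour abu-6 had 0.220, 1.07, 0 and 1.15 CPM in UM10, against 40.6 and 55.2 CPM in N2 (-6.28, SE 0.88, adjusted p 0.0169). UM10 replicates 1 and 3 were the lowest for both genes, and N2 replicate 2 was the highest. The levels of abu-11 were 0.807, 3.76, 1.07 and 4.99 CPM in UM10, against 88.4 and 125 CPM in N2 (-5.32, SE 0.65, adjusted p 0.0139), and those of pqn-2 were 0.0733, 0.921, 0.205 and 1.77 CPM, against 25.1 and 47.5 CPM (-5.60, SE 0.85). These families have similar sequences, and reads that map to several places were not counted, so values of single members are uncertain.

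A run of 6 genes that follow each other among the tested genes on chromosome V (9616031 to 9629214), pqn-63, idpc-7, idpc-6, idpc-5, idpc-4 and idpc-3, was called lower throughout. For idpc-6 the levels were 0.587, 2.03, 0.0411 and 1.11 CPM in UM10, against 37.01 and 58.3 CPM in N2 (-5.65, SE 0.80, adjusted p 0.0169). The log2 fold changes of the others were -4.38 for pqn-63, -4.68 for idpc-7, -5.26 for idpc-5, -4.81 for idpc-4 and -4.04 for idpc-3. All UM10 libraries lay below both N2 libraries in each of the 6. Over the whole pharyngeal cuticle list the median log2 fold change was -1.14, with -1.59 without N2 replicate 1 and -0.44 without N2 replicate 2, so leaving out the library that stood apart made it more negative. The count of 25 was 14 without UM10 replicate 1, 0 without N2 replicate 1 and 15 without N2 replicate 2. All 25 had an unadjusted p under 0.05 without N2 replicate 1. The 5 markers of pharyngeal muscle and glands summed to 6.97 to 110.3 CPM in UM10, against 51.4 to 311 CPM in N2, with overlap and none called. Among them ceh-22 had 0 reads in at least 1 library.

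Collagens of the body cuticle fell as well. They form the outer coat that the epidermis secretes anew at each moult, in waves of different collagen genes. Of 150 tested, 39 were called lower and 2 higher, and the median log2 fold change of the list was -1.34. An abundant member, col-73 (chromosome II 4872098 to 4873129), was at 980.4, 627, 769 and 500.2 CPM in UM10, against 2755 and 2285 CPM in N2 (-1.81, SE 0.40, adjusted p 0.0374). On the X chromosome, chtb-3, col-167, col-168, col-169 and col-170 (6314529 to 6332611) were a run of 5 called genes. Of these col-170 had 40.9, 26.5, 24.3 and 34.1 CPM in UM10, against 217 and 119.2 CPM in N2 (-2.42, SE 0.35, adjusted p 0.0169), and the others had log2 fold changes of -3.71, -1.89, -1.97 and -1.77 in the order of the run. No library crossed between the strains in any of them. The genes rol-1 and bli-1, known from mutants with a rolling gait and with cuticle blisters, were lower with log2 fold changes of -2.24 and -2.04.

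Both collagen genes called higher went against the list. For col-135 the levels were 55.6, 43.7, 29.8 and 43.003 CPM in UM10, against 3.77 and 5.36 CPM in N2 (3.23, SE 0.40, adjusted p 0.0139). For col-95 they were 82.1, 36.3, 82.2 and 138 CPM in UM10, against 9.27 and 2.38 CPM in N2 (3.88, SE 0.72, adjusted p 0.0234). The roller collagen rol-6, often used in worm transgenes, was at 190.2, 216, 90.1 and 93.0 CPM in UM10, against 324 and 286 CPM in N2, and did not pass the test. Without N2 replicate 1 the list's median was -0.76, and without N2 replicate 2 it was -1.49. The count of 39 lower collagens was 11 without UM10 replicate 1, 17 without UM10 replicate 2, 7 without UM10 replicate 3, 10 without UM10 replicate 4 and 0 without N2 replicate 1. Of the 39, 37 had an unadjusted p under 0.05 without N2 replicate 1. The count of 2 higher collagens was 1 without UM10 replicate 1 or N2 replicate 2, 8 without UM10 replicate 2 and 0 without N2 replicate 1. The 6 hypodermal markers were dpy-7, rol-6, elt-3, wrt-2, noah-1 and dpy-5. They include collagens of the list, so their sum is not independent of it. The markers summed to 574 to 1059 CPM in UM10, against 1927 to 2055 CPM in N2, with no overlap and none called.

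Few other genes of the moulting cycle were called. Of 32 tested genes for moulting regulators and the apical matrix, 1 (3.1%, against 1.83% of all tested genes) was called lower and 0 higher. The list's median log2 fold change was -0.98. A value below 0 was fitted for 30 of the 32, and 13 had all UM10 libraries below both N2 libraries. Over all tested genes, UM10 lay fully above or below N2 in 37.3%, and above in 21.1%. The period homologue lin-42, whose transcript cycles with each moult and which also belongs to the list of developmental timing genes, was the 1 gene called in the list for moulting and in that for timing (10 tested). It was at 283, 341, 117 and 102 CPM in UM10, against 832 and 889 CPM in N2 (-2.03, SE 0.51, adjusted p 0.0492), with the pair titled unkIs7_csgA lower than the pair titled unkIs7_WT. Of 44 hedgehog-related and ground-like genes, which encode secreted proteins of the epidermis, 4 were called lower and 0 higher. Among these grl-16 had 517, 366, 334 and 277 CPM in UM10, against 1969 and 1095 CPM in N2 (-2.04, SE 0.41). A steeper fall was fitted for grl-27, with 0.660, 0.368, 3.49 and 0.653 CPM in UM10, against 51.7 and 27.7 CPM in N2 (-4.94, SE 0.77), and wrt-9 fell by 1.81 on the log2 scale. UM10 replicate 3 was several times above the other UM10 libraries for grl-27 and remained far below N2. The count of 4 was 0 without UM10 replicate 1 or N2 replicate 1 and 2 without UM10 replicate 4, and lin-42 was called without UM10 replicate 2 and in none of the other fits with 1 library left out. Without UM10 replicate 2 the moulting list held 8 genes called lower, and without any other single library it held 0.

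**Figure D4:**
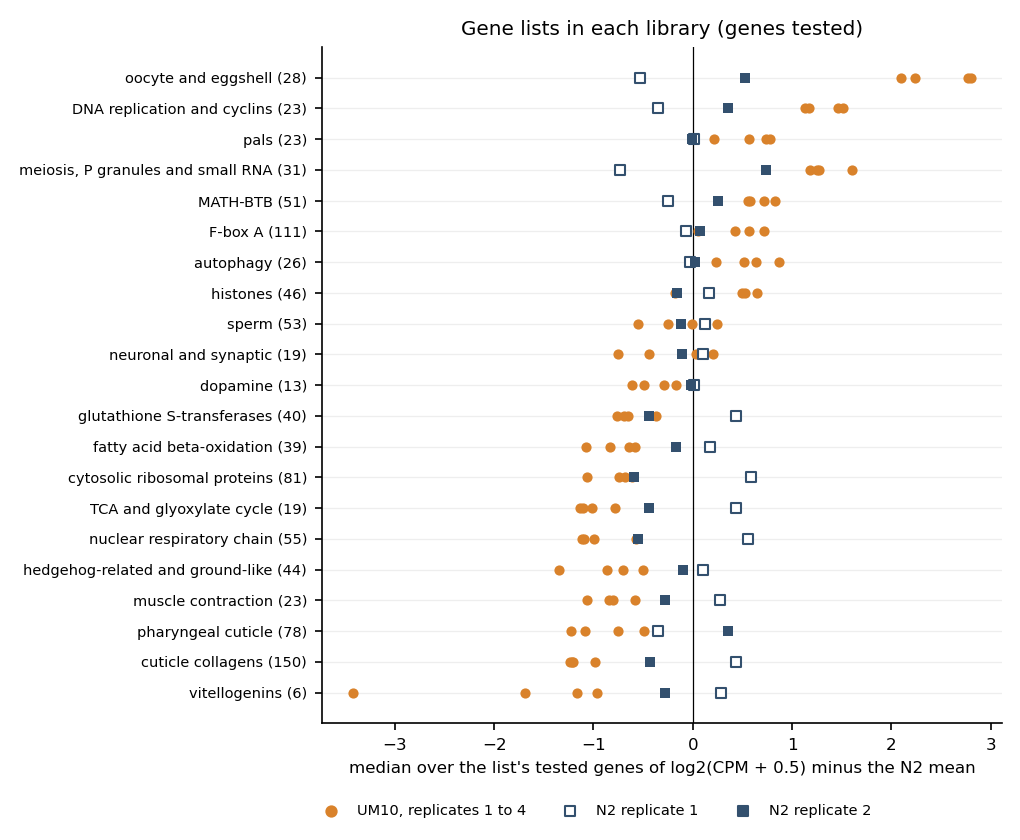
For each gene list (genes tested in brackets), the median over its genes of log2(CPM + 0.5) minus the N2 mean, with UM10 as circles, N2 replicate 1 as open squares and N2 replicate 2 as filled squares. Oocyte and replication lists are above N2 in every UM10 library, collagens below, while for the cytosolic ribosomal and respiratory chain lists the N2 libraries are farther from each other than any UM10 library is from N2 replicate 2.

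Very large rises were found in genes outside these groups. The protein-coding gene T28D9.4 (chromosome II 6476955 to 6478073, WBGene00020896) had 73.9, 79.6, 84.3 and 69.8 CPM in UM10, against 0.435 and 0.303 CPM in N2. Likewise W01A11.1, also protein-coding (chromosome V 6499224 to 6502428, WBGene00020909), had 86.4, 71.8, 80.9 and 68.3 CPM in UM10, against 0.290 and 0.346 CPM in N2. Their UM10 libraries lay close together and their N2 libraries were near 0. T28D9.4 had a log2 fold change of 7.72 (SE 0.45) and W01A11.1 one of 7.88 (SE 0.45), each with an adjusted p of 7.77e-05. Both were called in all 18 alternative fits, including the one without N2 replicate 1, where they had 7.88 and 7.70. W01A11.1 overlaps moc-2, and with the counts of either strand alone its log2 fold change was 4.50 or 4.61. The first strand column held 48.4% to 49.7% of the gene counts of both strand columns in every library. The strand columns therefore do not separate overlapping genes, here or below, and the cause of the lower values was not tested.

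Next to dat-1, the dopamine transporter gene, saeg-2 (WBGene00011964, chromosome III 9240363 to 9242514) was raised in UM10. Its product works with a cGMP-dependent kinase in the control of egg laying. Levels were 238, 228, 100 and 171 CPM in UM10, against 12.3 and 9.12 CPM in N2, a log2 fold change of 4.104 (SE 0.50, adjusted p 0.0139). It overlaps a pair of small genes with no reads in any library, and its log2 fold change was 3.21 and 3.16 with the counts of each strand. T23G5.11, a non-coding RNA gene 248 bases from dat-1 on the opposite strand (chromosome III 9242530 to 9242726), had 103, 67, 107 and 201 reads in UM10 and 0 in both N2 libraries. Against a floor of 3 reads per N2 library it was at least 26.5-fold higher. No UM10 library came near 0 for either gene. For dat-1 itself the levels were 2.09, 1.40, 1.73 and 3.26 CPM in UM10, against 2.61 and 2.55 CPM in N2. It did not pass the test, and neither did T02C1.1 or T02C1.2 within 5 kb on its other side, with log2 fold changes of -1.02 and 0.03.

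The donor of the transgene's promoter was not raised. The gene aex-3, which encodes an exchange factor for the synaptic GTPase RAB-3, was at 13.6, 18.9, 9.82 and 27.8 CPM in UM10, against 21.2 and 24.2 CPM in N2. Its libraries overlapped between the strains, and the log2 fold change of -0.37 (SE 0.41) did not pass the test. Its neighbour dyf-11 was not called either (-0.21). The transgene itself encodes a human protein and the tables count worm genes, so its level was not measured here.

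Several genes named for large folds had almost no reads in N2. The F-box gene fbxa-99, which overlaps oac-20, had 29, 19, 128 and 42 reads in UM10 and 0 in N2, at least 12.4-fold higher, with most of the reads in UM10 replicate 3. F56A4.3 had 369, 200, 40 and 96 reads in UM10 and 0 and 1 in N2, a ratio of 248 with a 95% counting interval of 44.4 to 9827. For C45H4.14 the ratio was 73.3 (interval 13.01 to 2909), for epic-3 it was 84.7 (28.9 to 412), and for F49H6.5 it was 60.6 (16.7 to 503). Such intervals cover counting error only and not the spread between animals.

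The pairs of UM10 libraries were unequal for several genes with large folds. The long non-coding RNA tts-1, known from long-lived mutants, was at 137, 147, 2019.5 and 1223 CPM in UM10, against 20.7 and 4.84 CPM in N2 (6.11, SE 1.44, adjusted p 0.0433). For the metallothionein gene mtl-1 the levels were 13.2, 1.55, 76.7 and 82.4 CPM in UM10, against 0.797 and 0.259 CPM in N2 (6.44, SE 1.62, adjusted p 0.0499). In both genes UM10 replicates 3 and 4, titled unkIs7_csgA, were far above replicates 1 and 2, and all UM10 libraries were above N2. Of the fits with 1 library left out, mtl-1 was called only in that without UM10 replicate 2. The small heat shock protein gene sip-1, which acts in reproduction and embryos, overlaps F43D9.8 and was even across the pairs, with 924, 718, 1092 and 771 CPM in UM10, against 99.0 and 120.3 CPM in N2 (2.998, SE 0.43, adjusted p 0.0169).

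Some detoxification genes were lower in UM10. The cytosolic catalase gene ctl-1 (WBGene00000830, chromosome II 14303568 to 14306260), which breaks down hydrogen peroxide, had 0, 1, 0 and 1 reads in UM10, against 206 and 151 reads in N2. The N2 to UM10 ratio was 506, with a 95% counting interval of 139 to 4198, and the fitted adjusted p was 0.00275. It was the 1 gene called of 22 in the list of superoxide dismutases, catalases and thiol enzymes. Of 40 glutathione S-transferase genes, whose products couple toxins to glutathione, 5 were called lower and 0 higher. The reporter gene gst-4, which overlaps dhs-12, was at 6.09, 5.01, 3.20 and 2.84 CPM in UM10, against 40.2 and 24.6 CPM in N2 (-2.91, SE 0.40, adjusted p 0.0169). For gst-10 the levels were 46.9, 25.1, 18.7 and 14.2 CPM in UM10, against 350.4 and 163 CPM in N2 (-3.29, SE 0.49, adjusted p 0.0169), and gst-5, which overlaps nos-1, fell by 1.69 on the log2 scale. The strains did not overlap in any of these. The count of 5 was 3 without UM10 replicate 1, 2 without UM10 replicate 2, 3 or 4 and 0 without N2 replicate 1, and the family's median was -0.62 with all libraries and -0.23 without N2 replicate 1.

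UDP-glucuronosyltransferases, which attach sugars to small molecules, had 6 of 59 tested genes called lower (10.2%) and 1 higher (1.69%). All tested genes had 1.83% lower and 3.43% higher. The lower ones included ugt-53 (-3.23), ugt-22 (-2.30) and ugt-46 (-1.88). The higher one, ugt-18, had 60, 55, 94 and 157 reads in UM10, against 1 and 2 in N2, a ratio of 42.996 with a 95% counting interval of 14.6 to 209. The count of 6 was 3 without UM10 replicate 1 or 3 or N2 replicate 2, 2 without UM10 replicate 4 and 0 without N2 replicate 1. Of 57 cytochrome P450 genes, 3 (5.26%) were higher and 2 (3.51%) lower, where all tested genes had 3.43% and 1.83%. The higher ones, cyp-31A2, cyp-31A3 and cyp-31A5, are near-identical genes that act in making the lipid layer of the eggshell, and their log2 fold changes of 1.95, 2.05 and 2.26 are uncertain as single values. The lower ones were cyp-14A2 (-3.22) and cyp-35C1 (-1.94). The count of 3 was 0 without UM10 replicate 1 or N2 replicate 1, and that of 2 was 0 without UM10 replicate 1 or N2 replicate 1 and 1 without UM10 replicate 2 or 4.

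Chaperone and stress reporters were mostly not called. The endoplasmic reticulum chaperone gene hsp-4 was at 271, 365, 988 and 269.5 CPM in UM10, against 265 and 305 CPM in N2, and the cytosolic heat shock gene hsp-16.2 at 0.990, 27.6, 522 and 16.9 CPM in UM10, against 12.1 and 1.30 CPM in N2. UM10 replicate 3 was far above all other libraries for both. The mitochondrial chaperone gene hsp-6 had 363, 860.0, 852 and 715 CPM in UM10, against 848 and 840.1 CPM in N2, and hsp-60 had a log2 fold change of -0.72. Apart from sip-1 no gene passed the test among 23 cytosolic chaperones. None did among 17 genes of endoplasmic reticulum stress, 8 of mitochondrial stress and 33 of the proteasome by edgeR, and without N2 replicate 1 these lists held 1, 0 and 0 genes at an unadjusted p under 0.05. The chaperone list's median was 0.90 with all libraries and 2.60 without N2 replicate 1. In the autophagy list 2 of 26 genes were called higher, atg-13 of the initiation complex (1.51, SE 0.36) and epg-4, which acts in autophagosome formation (1.49, SE 0.37). Neither was called in any fit that left out 1 library.

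Lists of energy metabolism had medians below 0 and few calls, nearly all lower in UM10. Of 55 nuclear genes of the respiratory chain 3 were called lower and 0 higher, with a median of -1.01. For nduv-3, a complex I subunit gene, the levels were 29.8, 16.3, 14.3 and 13.7 CPM in UM10, against 136 and 60.5 CPM in N2 (-2.40, SE 0.42, adjusted p 0.0191). The complex III gene ucr-2.2 and the complex I gene gas-1 had -1.96 and -1.50. The spread between the N2 libraries was wide here, since N2 replicate 1 was at more than 2 times the level of N2 replicate 2 in all 3 genes. Without N2 replicate 1 the list's median was -0.49, and the count of 3 was 1 without any 1 UM10 library, 0 without N2 replicate 1 and 22 without N2 replicate 2. ATP synthase genes had a median of -1.24 (-0.71 without N2 replicate 1) and cytosolic ribosomal protein genes one of -0.88 (-0.25 without it). None of the 10 ATP synthase or 81 ribosomal protein genes was called by edgeR with all libraries. Without N2 replicate 2, 8 of the ATP synthase and 17 of the ribosomal protein genes were called lower.

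In the citric acid cycle 3 of 19 genes were called lower and 0 higher. They were sucl-1 and suca-1, for succinyl-CoA ligase subunits (-1.69 and -1.74), and idhb-1, for a subunit of isocitrate dehydrogenase (-1.29). The count was 0 without any 1 UM10 library or N2 replicate 1 and 8 without N2 replicate 2. Among 39 genes of fatty acid beta-oxidation 4 were called lower and 0 higher. The acyl-CoA dehydrogenase gene acdh-2, which overlaps ins-13, was at 0, 0.553, 0 and 0.115 CPM in UM10, against 14.2 and 7.70 CPM in N2 (-5.97, SE 1.05, adjusted p 0.0196). The peroxisomal oxidase gene acox-1.2, which shortens side chains of pheromones, was at 46.7, 38.7, 4.48 and 10.5 CPM in UM10, against 199 and 246 CPM in N2 (-3.15, SE 0.73), with the pair titled unkIs7_csgA lowest. The hydratase gene ech-1.1 fell by 3.14 on the log2 scale, and hach-1 of the propionate list had -1.94. The count of 4 was 1 without UM10 replicate 1, 2 without UM10 replicate 4, 0 without N2 replicate 1 and 7 without N2 replicate 2. The arginine kinase gene argk-1, whose product stores phosphate for ATP, was at 1.39, 2.58, 0.205 and 0.115 CPM in UM10, against 67.4 and 29.6 CPM in N2 (-5.48, SE 0.91, adjusted p 0.0178). Its pair titled unkIs7_csgA was again the lower one, and it was not called without UM10 replicate 1 or without N2 replicate 1. The call of hach-1 was kept without UM10 replicate 2 and without N2 replicate 2 and lost without each of the other libraries.

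In glycolysis 2 of 19 genes were called, both higher, while the list's median was -0.84. These were gpd-1 (1.78) and gpd-4 (1.62), near-identical genes for glyceraldehyde-3-phosphate dehydrogenase. The count was 0 without UM10 replicate 1 or N2 replicate 1 and 1 without UM10 replicate 2, 3 or 4 or N2 replicate 2. Of 14 tested genes of the mitochondrial genome 1 was called, the ribosomal RNA gene WBGene00014472, at 87.0, 47.3, 235 and 155 CPM in UM10, against 12.2 and 9.86 CPM in N2 (3.57, SE 0.66). It was not called without UM10 replicate 1 or without either N2 library. The libraries were enriched for poly-A RNA. Of 65 mitochondrial ribosomal protein genes mrps-28 was called lower (-1.65), and with 1 library left out it was called only without N2 replicate 2. That was 1.54% of the list, near the 1.83% of all tested genes. The divalent metal transporter gene smf-3 was lower too (-1.62, SE 0.38), with UM10 libraries at 3.23, 3.46, 4.52 and 5.45 CPM, against 12.9 and 12.8 CPM in N2, and was called in none of the fits that left out 1 library.

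**Figure D5:**
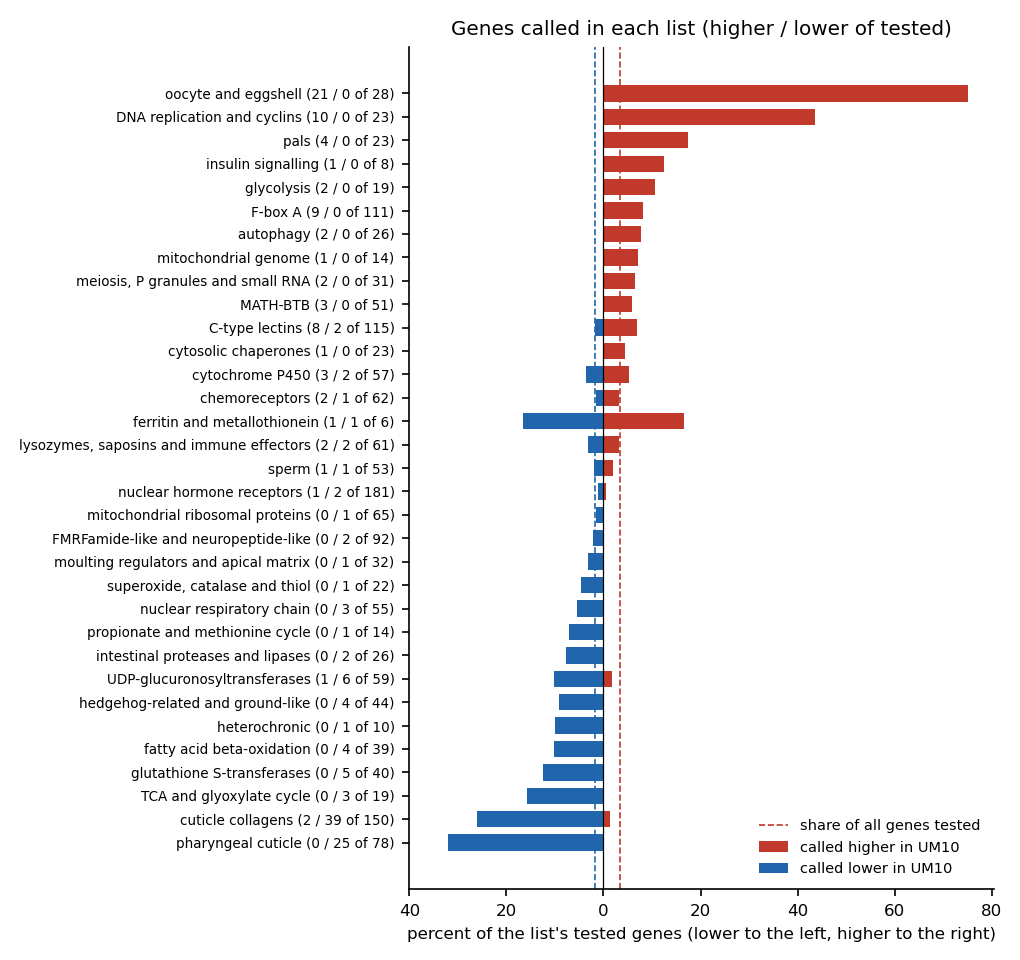
Percent of each list's tested genes called lower (blue, to the left) and higher (red, to the right) in UM10, with the counts beside the names and dashed lines at the shares over all tested genes, 1.83% and 3.43%; lists of 5 or more tested genes with at least 1 call are shown. The oocyte and replication lists stand out to the right and both cuticle lists to the left.

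Families linked to microbes and intracellular infection were mixed. The pals genes, several of which respond to microsporidia and virus, had 4 of 23 called higher and 0 lower. The reads of pals-14 were 182, 21, 214 and 283 in UM10, against 2 and 3 in N2, a ratio of 49.3 with a 95% counting interval of 21.04 to 152. UM10 replicate 2 was far below the other UM10 libraries for pals-14. For pals-32 and pals-39 the log2 fold changes were 2.995 and 3.03. The count of 4 was 0 without UM10 replicate 1 or N2 replicate 1 or 2 and 2 without UM10 replicate 3 or 4. F-box A genes, which encode adaptors of ubiquitin ligases, had 9 of 111 higher and 0 lower, among them fbxa-215 at 139.9, 79.7, 88.4 and 56.3 CPM in UM10, against 11.8 and 17.3 CPM in N2 (2.64, SE 0.45). Others were fbxa-170 (3.71) and fbxa-158, whose ratio was 30.7 with an interval of 10.4 to 149.6. That count was 3 without UM10 replicate 1, 0 without N2 replicate 1 and 4 without N2 replicate 2. MATH-BTB genes, also ubiquitin ligase adaptors, had 3 of 51 higher (5.88%, against 3.43% of all tested genes) and 0 lower, including bath-41 (1.66) and bath-30 (1.76). This one was 0 without UM10 replicate 1 or 3 or N2 replicate 1 and 1 without UM10 replicate 2.

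C-type lectins, a large family of secreted carbohydrate-binding proteins, had 8 of 115 (6.96%) called higher and 2 (1.74%) lower. All tested genes had 3.43% higher and 1.83% lower. Levels of clec-87 were 368, 399, 467 and 281 CPM in UM10, against 43.7 and 65.9 CPM in N2 (2.79, SE 0.42, adjusted p 0.0169), and clec-88 and clec-91 had 2.82 and 2.56. Each of these 3 overlaps another gene. The lower ones were clec-10 (-1.99) and clec-246, which had 4, 4, 1 and 1 reads in UM10, against 13 and 20 in N2. The count of 8 was 3 without UM10 replicate 1 or N2 replicate 2 and 0 without N2 replicate 1, and that of 2 was 0 without UM10 replicate 1 or 3 or N2 replicate 1, 1 without UM10 replicate 2 or 4 and 4 without N2 replicate 2. Among 61 lysozyme, saposin and effector genes 2 were higher and 2 lower, 3.28% each, where all tested genes had 3.43% and 1.83%. The invertebrate-type lysozyme gene ilys-3 had 7.003, 8.69, 25.3 and 63.7 CPM in UM10, against 0.797 and 0.605 CPM in N2 (5.23, SE 1.06), and dod-22 had 3.21. UM10 replicate 4 led for ilys-3 and UM10 replicate 1 for dod-22. The saposin-like genes spp-17 and spp-4 were lower (-2.40 and -1.99). The count of higher effectors was 1 without UM10 replicate 1 or 3 or N2 replicate 2 and 0 without N2 replicate 1, and that of lower ones 1 without UM10 replicate 2, 3 or 4 and 0 without N2 replicate 1. The intestinal protease genes cpr-5 and cpr-8 were called lower as well (-1.85 and -1.77), 2 of 26 in their list, a count that was 0 without UM10 replicate 1 or 4 or N2 replicate 1, 1 without UM10 replicate 2 or 3 and 4 without N2 replicate 2. The 6 intestinal markers summed to 1004 to 2464 CPM in UM10, against 3293 to 8293 CPM in N2, with no overlap and none called.

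Neuronal genes of the cells in which the transgene is driven were not called. None of 19 neuronal and synaptic genes, 13 dopamine genes and 11 homologues of Parkinson's disease genes was called by edgeR, and none of these had an unadjusted p under 0.05 without N2 replicate 1. The synaptobrevin gene snb-1, a protein of synaptic vesicles, was at 242, 295, 552 and 399 CPM in UM10, against 424 and 262 CPM in N2. The pan-neuronal gene unc-119 was at 12.3, 9.62, 5.83 and 10.6 CPM in UM10, against 12.8 and 8.04 CPM in N2. The strains overlapped in both. The retromer gene vps-35, whose human counterpart is mutated in a form of Parkinson's disease, had a log2 fold change of 0.74 (SE 0.36). The decarboxylase gene bas-1, which makes dopamine and serotonin, was at 19.1, 17.3, 4.11 and 10.9 CPM in UM10, against 50.3 and 30.9 CPM in N2, without overlap. Its log2 fold change of -1.66 (SE 0.51) had an adjusted p of 0.0832 and did not pass. In 4 of the 18 alternative fits bas-1 was called lower. Of the 13 dopamine genes 4 had all UM10 libraries below both N2 libraries and 0 had them above. Over all tested genes, UM10 lay fully above or below N2 in 37.3%, and above in 21.1%. The 7 neuron markers summed to 419 to 698 CPM in UM10, against 428 to 729 CPM in N2. Neurons give a small part of the RNA of a whole worm.

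Of 92 neuropeptide genes 2 (2.17%) were called lower and 0 higher, where 1.83% of all tested genes were lower. They were nlp-24 (-1.60) and nlp-30 (-1.78), the second of which is an antimicrobial-type peptide gene of the epidermis. Of 62 tested chemoreceptor genes srg-31 (4.36) and srw-145 (ratio 9.16, 95% counting interval 3.02 to 45.4) were higher and srx-58 was lower (-2.28). Those calls made up 3.23% and 1.61% of the chemoreceptors, near the 3.43% and 1.83% of all tested genes. Of 181 nuclear hormone receptor genes nhr-2, which acts in embryos, was higher (3.13, SE 0.52), and the neighbours nhr-234 and nhr-235 were lower (-3.67 and -4.14). None of 20 insulin-like peptide genes was called by edgeR, and 0 had an unadjusted p under 0.05 without N2 replicate 1. The count for neuropeptides was 0 without UM10 replicate 1 or N2 replicate 1, 1 without UM10 replicate 2, 3 or 4 and 4 without N2 replicate 2, for higher chemoreceptors 0 without UM10 replicate 1 or N2 replicate 1 or 2 and 1 without UM10 replicate 3 or 4, for lower chemoreceptors 0 without UM10 replicate 3 or 4 or N2 replicate 1 or 2, for higher hormone receptors 0 without N2 replicate 1 and for lower ones 0 without UM10 replicate 1 or N2 replicate 1 or 2 and 1 without UM10 replicate 3 or 4. In muscle none of 23 contraction genes was called by edgeR, and DESeq2 called 3 lower. The list's median log2 fold change was -1.05, and 22 values were below 0. In this list 4 genes were called lower without N2 replicate 2, and 4 had an unadjusted p under 0.05 with a value below 0 without N2 replicate 1. The most abundant member, the actin gene act-4, which overlaps M03F4.6, was at 5337, 3205, 4206 and 5577 CPM in UM10, against 15472 and 7189.7 CPM in N2 (-1.31, SE 0.49, adjusted p 0.131), with no overlap of the strains. The myosin heavy chain gene unc-54 was at 1491, 2586, 4919 and 4569 CPM in UM10, against 3603 and 4838 CPM in N2, while the 6 body wall muscle markers summed to 7995 to 13980.2 CPM in UM10, against 14305 to 21020.3 CPM in N2, with no overlap and none called.

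The most abundant genes called lower were not all cuticle genes. The gene sec-61.A encodes the channel through which proteins enter the endoplasmic reticulum (chromosome IV 14822540 to 14825264) and was at 793, 1344, 394 and 704 CPM in UM10, against 4619.9 and 2575 CPM in N2 (-2.15, SE 0.51, adjusted p 0.0443). Its partner trap-1, of the translocon-associated complex, was at 555, 621, 194 and 316 CPM in UM10, against 2409.8 and 1226 CPM in N2 (-2.11, SE 0.51). The strains did not overlap, and UM10 replicate 3 was the lowest library for both. Other abundant lower genes were ZK180.5 (-1.59) and ram-2 (-1.84), and the RNA-binding Y-box gene cey-2 was among the abundant higher ones (1.69). Steep falls outside the lists were found for R03C1.1, which overlaps cog-1, at 0.917, 1.22, 0.657 and 2.69 CPM in UM10, against 55.6 and 58.6 CPM in N2 (-5.38, SE 0.51, adjusted p 0.00381). BE0003N10.6 had 0.770, 10.5, 1.15 and 0.921 CPM in UM10, against 209.7 and 172 CPM in N2 (-5.84, SE 0.97). UM10 replicate 2 was well above the other UM10 libraries for BE0003N10.6.

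Called genes were spread over all chromosomes. The share of tested genes called higher ran from 2.68% on X to 3.86% on V among the nuclear chromosomes, and the share called lower from 0.893% on III to 2.71% on V, with 2.54% on X and 2.44% on II. The higher calls included 2 runs of 4 neighbours, F14H3.3 to F14H3.6 on chromosome V (16051923 to 16058893) and ZK813.3, ZK813.2, ZK813.7 and ZK813.1 on X (3441839 to 3446935). In the first run F14H3.6 had 150.0, 87.6, 86.1 and 59.1 CPM in UM10, against 9.71 and 11.2 CPM in N2 (3.19, SE 0.46), and the others had log2 fold changes of 3.61, 3.01 and 2.86 in numerical order. In the second, ZK813.7 had 275, 121, 216 and 121 CPM in UM10, against 29.1 and 24.6 CPM in N2 (2.77, SE 0.48), and ZK813.3, ZK813.2 and ZK813.1 had 2.28, 3.15 and 2.42. UM10 replicate 1 was the highest library for all 8 genes. By annotation 518 of the higher and 274 of the lower genes were protein-coding. Of the called genes 77 higher and 109 lower ones belonged to at least 1 of the 47 lists, and 449 higher and 172 lower ones to none.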

How the data were processed

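Poly-A RNA of whole L4 animals was sequenced in 6 libraries, 4 of UM10 and 2 of N2. The authors deposited 1 table of raw read counts per library, with an unstranded column and a column for each strand. Per the submitters' processing notes, STAR 2.7.5, DESeq2 1.28.1 and the WBcel235 build were used. Which counter was run with which settings was not given in the sources used here. The unstranded counts were analysed. Of 46778 gene identifiers 46603 matched the Ensembl release 115 annotation of WBcel235, from which names and coordinates come. Summary lines that name no gene held 7.85% to 8.72% of reads and were left out of totals and tests. Overlapping genes were also counted without strand, and the treatment of reads shared by overlapping genes was not given in the sources used here. Reads that map to several places (2.57% to 4.05%) were not counted.

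Low genes were removed with filterByExpr in edgeR 4.0.16, which asked for the equivalent of 10 counts in 2 libraries and for 15 in all. The rest were scaled by TMM and tested with edgeR's quasi-likelihood F test for UM10 against N2 with no covariate. The fit had 4 residual degrees of freedom and a biological coefficient of variation of 0.426. P-values were adjusted by Benjamini-Hochberg over all tested genes, with calls made below 0.05. Each standard error is the size of the log2 fold change divided by the root of its F statistic. Lists are described by counts of calls and by the median of their fitted log2 fold changes. A group with at most 3 reads in each library was treated as at the floor; such folds are bounds where all its libraries held 0, and otherwise ratios of pooled counts with exact 95% binomial intervals. R was 4.3.3. Alternatives were other scalings, filters and tests (DESeq2 1.42.0, limma 3.58.1), the strand columns, each UM10 pair alone, a replicate block and each library left out.

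The comparison, its members and the 47 gene lists were chosen with earlier results of these data known. Genes were named by rule: the 10 called genes with the largest fold in each direction (at least 50 counts in the higher group, no overlap), the 6 with the highest level, up to 3 per list and direction by adjusted p (or the most abundant member of a list without a call), preset reporter genes, genes within 5 kb of aex-3 or dat-1, and runs of 4 or more called neighbours. Other genes were chosen after their values were seen. These are in the report the remaining oocyte and eggshell genes, gld-1, daz-1, cyb-3, cdk-1 and bli-1, and all genes first named in the closing section.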

Additional observations from a re-analysis of the deposited data

Results flagged for a closer look

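Among 229 groups of 4 UM10 values examined (single genes and list medians), 14 held 1 library set apart from the others by Dixon's ratio of gap to range at the 95% level, where chance gives about 1 in 20. UM10 replicate 3 was the outlying library for the endoplasmic reticulum chaperone genes hsp-4, at 988 CPM with the others at 269.5 to 365 CPM, and crt-1 (calreticulin), at 1502 CPM with the others at 1086 to 1115 CPM. It was also the high one for the heat shock gene hsp-16.2, at 522 CPM with the others at 0.990 to 27.6 CPM, and for the fatty acid desaturase gene fat-6, at 1520.3 CPM with the others at 572 to 628 CPM. For grl-27 it had 3.49 CPM, with 0.368 to 0.660 CPM in the others.

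UM10 replicate 1 was the high library for the complex I gene nduv-3 (29.8 CPM, others 13.7 to 16.3 CPM), for dod-22 (43.3 CPM, others 8.67 to 10.6 CPM) and for nlp-30 (8.07 CPM, others 6.74 to 6.94 CPM). Its median log2 difference from the N2 mean was -0.99 over the cuticle collagens, with the others at -1.24 to -1.205, and -0.17 over the mitochondrial ribosomal proteins, with the others at -0.52 to -0.48. UM10 replicate 2 was the high library for BE0003N10.6 (10.5 CPM, others 0.770 to 1.15 CPM) and for the neighbours nhr-234 (2.43 CPM, others 0.288 to 0.614 CPM) and nhr-235 (0.516 CPM, others 0.0367 to 0.0822 CPM). UM10 replicate 4 was low for the oocyte gene egg-3, at 39.1 CPM with the others at 57.2 to 60.8 CPM.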

How the results depend on the processing

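The count of 807 called genes (526 higher, 281 lower) moved most with the libraries. Leaving out 1 library gave 2 to 948 calls, 2 to 542 higher and 0 to 406 lower, with the lowest without N2 replicate 1 and the highest without N2 replicate 2. DESeq2 called 2082 (1225 higher, 857 lower), edgeR without a filter on low counts 2072 (1143 and 929), limma voom with quality weights 354 (227 and 127), and a fit of 3 groups with the mean of both UM10 pairs 1582, of which 805 were lower. Upper-quartile factors gave 345 higher, the pair titled unkIs7_WT alone 136 lower, and the pair titled unkIs7_csgA alone 349 higher and 631 lower. The count stayed within 1.5 times of 807 with DESeq2's size factors (687), a stricter filter (879) and the counts of each strand (664 and 742). With the replicate block it was 586 (366 higher, 220 lower). The correlation of the differences between replicate numbers was 0.36 for unkIs7_WT with N2_WT. It was -0.11 for unkIs7_csgA with N2_WT and 0.08 for unkIs7_WT with unkIs7_csgA. With 1 value per pair of titled groups, these do not settle whether equal numbers pair the libraries.

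Of 178 genes examined singly, 152 were called. None of the called genes changed sign under the 18 alternatives, and the genes snb-1, unc-119, unc-54, dat-1, dyf-11 and T02C1.2, which were not called, did under 1 to 9 of them. In called genes the strains' libraries were fully apart, so fits on fewer of the same libraries were no test of their sign. The number that lost the call was 150 without N2 replicate 1, 90 without UM10 replicate 1, 51 with limma voom and 1 with DESeq2. List medians changed sign without N2 replicate 1 for immune effectors (-0.23, then 0.30), neuropeptides (-0.18, then 0.21), intestinal proteases (-0.74, then 0.04) and superoxide, catalase and thiol genes (-0.11, then 0.03), and without N2 replicate 2 for endoplasmic reticulum stress (-0.01, then 0.14), insulin-like peptides (-0.43, then 0.50) and Parkinson's disease homologues (-0.14, then 0.05). The cause of these changes was not tested. Total gene counts were alike, but the level worth 3 reads was 0.217 CPM in N2 replicate 1 and 0.110 to 0.130 CPM in the other libraries. Genes below the filter on low counts were not assessed.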

Other observations

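Further families, picked after their values were seen, are described here, and their counts are a description only. Over all tested genes 3.43% were called higher and 1.83% lower. Some meg, egg and puf genes belong to the oocyte and eggshell list above, so their calls are counted there too. The meg genes, which build P granules in the embryo, were all called higher, 4 of 4, for example meg-3 (2.97) and meg-4 (3.28). So were the memi genes, which act as the oocyte completes meiosis, 3 of 3, with memi-1 at 30.8, 38.2, 64.6 and 39.2 CPM in UM10, against 6.08 and 8.60 CPM in N2. Translational regulators of the puf family were higher in 6 of 8 cases, with log2 fold changes of 1.69 to 2.696. The pseudophosphatase genes egg-4 and egg-5, close paralogues that act in the oocyte-to-embryo transition, were among 5 of 6 egg genes called higher (2.51 and 2.44). None of 4 gld genes, which regulate germ cell fate, was called by edgeR, with a median of 1.197, an unadjusted p under 0.05 for 3 and 1 called by DESeq2. Of 21 innexin genes, which form gap junctions, 5 were higher and 0 lower, and inx-14 and inx-22, which join oocytes to the sheath cells around them, were among the called (1.79 and 2.098). The median over all innexins was -0.21. All UM10 libraries were above both N2 libraries in 8 innexins and below both in 8, where 21.1% of all tested genes were fully above. T-box transcription factor genes were higher in 3 of 6 cases, skr genes, which encode subunits of SCF ubiquitin ligases, in 3 of 16, and ule genes, named for expression in the uterine lumen, in 3 of 5.

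Lower families included the nspb genes, with 4 of 10 called. One of them, nspb-10, was at 0.0367, 0.0368, 0 and 0 CPM in UM10, against 1.96 and 2.81 CPM in N2, and members of this family are similar in sequence. Genes of protein entry into the endoplasmic reticulum were lower in 2 of 4 cases for the translocon-associated complex (trap-2, -2.25) and in 1 of 3 for the Sec61 channel. All members of both had UM10 libraries below both N2 libraries. Over all tested genes, UM10 lay fully above or below N2 in 37.3%, and above in 21.1%. Cuticlin genes were lower in 2 of 6 cases. In purine and pyrimidine synthesis 3 of 10 genes were called lower, paic-1, pfas-1 (-1.59) and umps-1 (-1.86). None of these calls was kept without N2 replicate 1, and all of the called genes in these families had an unadjusted p under 0.05 in that fit.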
